A study of Mus musculus with 26 samples.

Results

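The livers described here came from 7 mouse samples heterozygous for a knockout of Mtarc1 and fed CDAHFD (a choline-deficient diet, high in fat, with its protein given as defined L-amino acids) and from 5 wildtype samples on control chow. They were chosen by their titles and make up 12 of the 26 bulk RNA-seq libraries of the series, which also holds 6 wildtype and 8 homozygous knockout livers on CDAHFD. CDAHFD was given for 2 weeks before RNA was taken. The samples are numbered, and nothing says that each is a separate animal, so every p-value below measures the spread between these samples, which may be technical. Neither age, sex nor strain is stated, nor the deleted part of Mtarc1 or the cells that lack it, and the chow group holds no heterozygous liver. Genotype and diet therefore differ together between these groups, and their parts in any difference cannot be told apart. The comparison asks which differences from a chow-fed wildtype liver are seen on CDAHFD when 1 copy of Mtarc1 is intact.

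Mtarc1 encodes mARC1, a molybdenum enzyme of the outer mitochondrial membrane that reduces N-hydroxylated compounds with electrons passed on by cytochrome b5 and cytochrome b5 reductase, and variants of the human gene are known for their association with fatty liver disease. Choline is needed to make phosphatidylcholine, and the liver needs phosphatidylcholine to export triglyceride in very low density lipoprotein. A choline-deficient diet therefore leads to fat storage in hepatocytes, and with more fat in the diet to inflammation and scar formation, in which resident Kupffer cells, recruited macrophages and stellate cells take part.

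Total estimated counts, in units of 1e6, lay between 24.73 and 29.91 in the heterozygous CDAHFD libraries and between 21.39 and 24.15 in the wildtype chow libraries. All levels below are CPM (counts per 1e6 counts of the library) after TMM scaling, which sets libraries to a common level on the assumption that most genes do not differ, and they are not divided by gene length. On the first principal component, which held 44.8% of the variance of log2 CPM, the heterozygous livers lay between 20.23 and 54.44 and the chow livers between -61.06 and -27.81. Heterozygous sample 4 and chow sample 3 stood apart on the second component (14.4%), at -50.32 and 41.84. The mitochondrial share covers every gene whose symbol starts with mt-, not the protein-coding ones alone. It was 8.08% ± 1.85 of the counts in heterozygous CDAHFD livers (SD, n = 7) and 13.13% ± 2.98 in wildtype chow livers (SD, n = 5). The exact two-sided permutation test gave p = 0.00758. The difference was -5.05 percentage points over all 12 libraries. It was -4.54 among those whose library names are numbered in the 11000s (4 against 4, exact permutation test, p = 0.0857). The 20 most abundant genes took 23.57% ± 0.70 of the counts in heterozygous CDAHFD livers and 29.47% ± 2.38 in wildtype chow livers (p = 0.00253, exact permutation test). All 12 hepatocyte markers were detected, so the libraries carried the RNA of the labelled tissue. A fall of a cell type's markers in bulk tissue can mean fewer of its cells or less RNA in each, and these cannot be told apart.

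Mtarc1 was measured at 108, 157 and 198.5 CPM at the lowest, median and highest heterozygous CDAHFD liver, against 312, 305, 346, 258 and 256 CPM in wildtype chow livers 1 to 5. Every heterozygous liver lay below every chow liver, with sample 4 the lowest and sample 2 the highest of the heterozygous ones. The mean was 154 ± 31.7 CPM in heterozygous CDAHFD livers (SD, n = 7) and 295 ± 38.3 CPM in wildtype chow livers (SD, n = 5), or 52.3% of the chow mean, and the exact two-sided permutation test gave p = 0.00253, the smallest that 7 against 5 samples allow. Among libraries numbered in the 11000s the mean was 48.0% of that of chow (4 samples each), and in the 9000s it was 55.7% (3 heterozygous livers and 1 chow liver). The paralog Mtarc2, which encodes the second mARC enzyme, averaged 327 ± 37.1 CPM in heterozygous CDAHFD livers and 318 ± 37.2 CPM in wildtype chow livers (p = 0.654, exact permutation test). The groups overlapped, between 274.5 and 358 CPM in heterozygous and between 277 and 368 CPM in chow livers. With raw library totals in place of TMM the same comparison gave 345 ± 22.8 CPM in heterozygous CDAHFD livers and 292.5 ± 32.5 CPM in wildtype chow livers (exact permutation test, p = 0.0126), so whether Mtarc2 is read as different depends on the scaling.

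**Figure D1:**
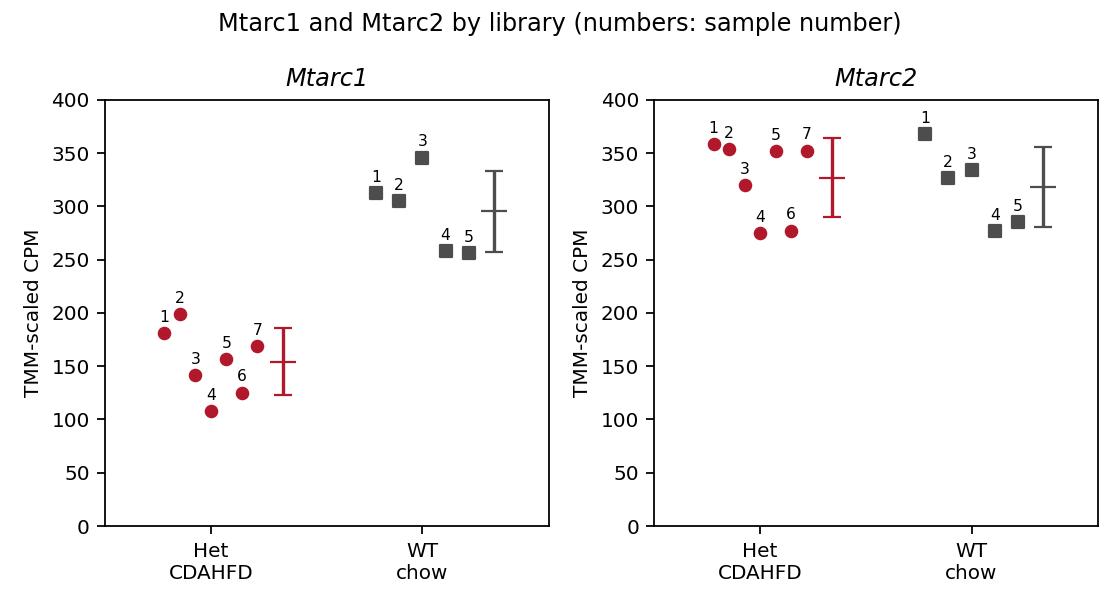
TMM-scaled CPM of Mtarc1 (left) and Mtarc2 (right) in each of the 7 heterozygous CDAHFD livers (red circles) and 5 wildtype chow livers (grey squares), with sample numbers and, beside the points, the mean and SD. For Mtarc1 the heterozygous livers reach at most 198.5 CPM and the chow livers no less than 256 CPM, whereas the groups overlap for Mtarc2.

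Of the 12 genes of the mARC electron chain, of molybdenum cofactor synthesis and of the other molybdenum enzymes, 1 rose and 3 fell (edgeR quasi-likelihood test, Benjamini-Hochberg adjusted p under 0.05, as for every call below). Over all 16161 genes tested, 36.1% were called, so 4 of 12 is close to that background. Every list count below is to be read beside that share. Xdh, which encodes xanthine dehydrogenase of purine breakdown, rose by 0.62 ± 0.12 on the log2 scale (SE; adjusted p = 0.00172). Cyb5r3, the cytochrome b5 reductase that feeds mARC, had 313, 381.5 and 462 CPM in heterozygous CDAHFD livers (lowest, median, highest) against 576, 529.5, 519.9, 522 and 492 CPM in wildtype chow livers. No heterozygous liver reached the lowest chow liver, and the log2 fold change was -0.48 ± 0.11. Mtarc1 itself had a log2 fold change of -0.94 ± 0.14 (adjusted p = 0.00029). Mocs2, which encodes molybdopterin synthase, had -0.25 ± 0.09 (adjusted p = 0.0426), a call that ended when any 1 of 10 of the 12 libraries was left out (all but heterozygous samples 1 and 5). Cyb5b, Suox, Aox1, Aox3, Gphn, Mocs1 and Mocs3 were not called, with log2 fold changes between -0.20 and 0.26.

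Of all genes tested, 2931 (18.1%) were higher and 2909 (18%) were lower in heterozygous CDAHFD livers than in wildtype chow livers, and 836 (5.17%) were called at least 2-fold higher and 546 (3.38%) at least 2-fold lower. Every heterozygous liver lay above every chow liver for 1278 genes (7.91%) and below for 1044 (6.46%). The balance of directions rests on TMM: of the calls, 50.2% were higher with TMM and 82.2% with raw library totals (6594 calls), which moved the median log2 fold change over all genes to 0.20, against 0.00 with TMM. Changes below are relative to that median. Within the 11000s libraries (4 against 4) 3142 genes were called, and with the 3 heterozygous livers and 1 chow liver of the 9000s 672.

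Rises were ranked among called genes with a symbol and a mean of at least 1 CPM in the higher group. Of those with counts in both groups, Mmp12, a macrophage elastase, had the largest rise. It had 18, 30.6 and 63 CPM in heterozygous CDAHFD livers (lowest, median, highest) against 0.852, 0.664, 0.614, 0.531 and 0.665 CPM in wildtype chow livers. All 7 heterozygous livers lay far above all 5 chow livers, and the log2 fold change was 5.82 ± 0.43 (adjusted p = 2.88e-06). Gpnmb, a glycoprotein of lipid-laden macrophages, had 11.2, 16.5 and 41.9 CPM in heterozygous CDAHFD livers against 0.717, 0.474, 0.307, 0.386 and 0.307 CPM in chow livers (5.58 ± 0.47). Others of the 12 largest rises in this ranking were Sprr1a, a cornified envelope protein gene (5.54 ± 0.55), Ubd, which encodes the ubiquitin-like protein FAT10 (5.15 ± 0.71), Clec4e, the macrophage receptor Mincle (4.87 ± 0.67), Ly6d, a surface protein gene of epithelial and lymphoid cells (4.77 ± 0.50), and Cidec, a lipid droplet fusion protein (4.27 ± 0.39). For each of these the groups did not overlap. Gsta1, a glutathione transferase (4.23 ± 0.56), and Gm3776 (4.65 ± 0.51) belong to a family whose members share reads, so the split between them is uncertain. Gm21188 (4.31 ± 0.56) rose as well. Gm20458 and Gm12751 had no counts in any chow liver and reached at most 4.90 and 1.75 CPM in heterozygous CDAHFD livers; no fold is given for them.

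The largest falls, ranked with the same floor of 1 CPM, were partly in gene families that also share reads. Serpina4-ps1, a pseudogene of the serine protease inhibitor cluster, fell (-6.30 ± 0.72), as did Serpina1e, an alpha-1-antitrypsin gene (-4.07 ± 0.74). Serpina1e reached 21.7, 52.3 and 209 CPM in heterozygous CDAHFD livers (lowest, median, highest) against 132, 3289, 1529, 818 and 1283 CPM in wildtype chow livers, and only chow sample 1 lay within the heterozygous range. Slc34a2, a sodium-phosphate cotransporter, had 0.147, 0.417 and 0.942 CPM in heterozygous CDAHFD livers against 3.27, 7.11, 3.38, 10.6 and 6.45 CPM in chow livers (-3.62 ± 0.38; adjusted p = 2.37e-05). Slc13a2, a sodium-dicarboxylate cotransporter, had a log2 fold change of -3.13 ± 0.32, and the groups did not overlap for either transporter. Hsd3b5, a steroid-metabolizing enzyme of the mouse liver, fell by 3.28 on the log2 scale (SE 0.78), with chow livers spread between 1.26 and 27.7 CPM. Cyp3a16, a cytochrome P450, had -3.00 ± 0.94 (adjusted p = 0.0282), a call that ended without chow sample 4 or 5 or without heterozygous sample 2 or 3. The remaining 6 of the 12 largest falls were AC127342.1 (-3.74 ± 0.23), Gm20708 (-5.12 ± 0.92), Gm12744 (-3.72 ± 0.90), Gm3839 (-3.65 ± 0.31), Gm37335 (-3.59 ± 0.86) and Gm49012 (-3.43 ± 0.42), which carry no functional name.

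**Figure D2:**
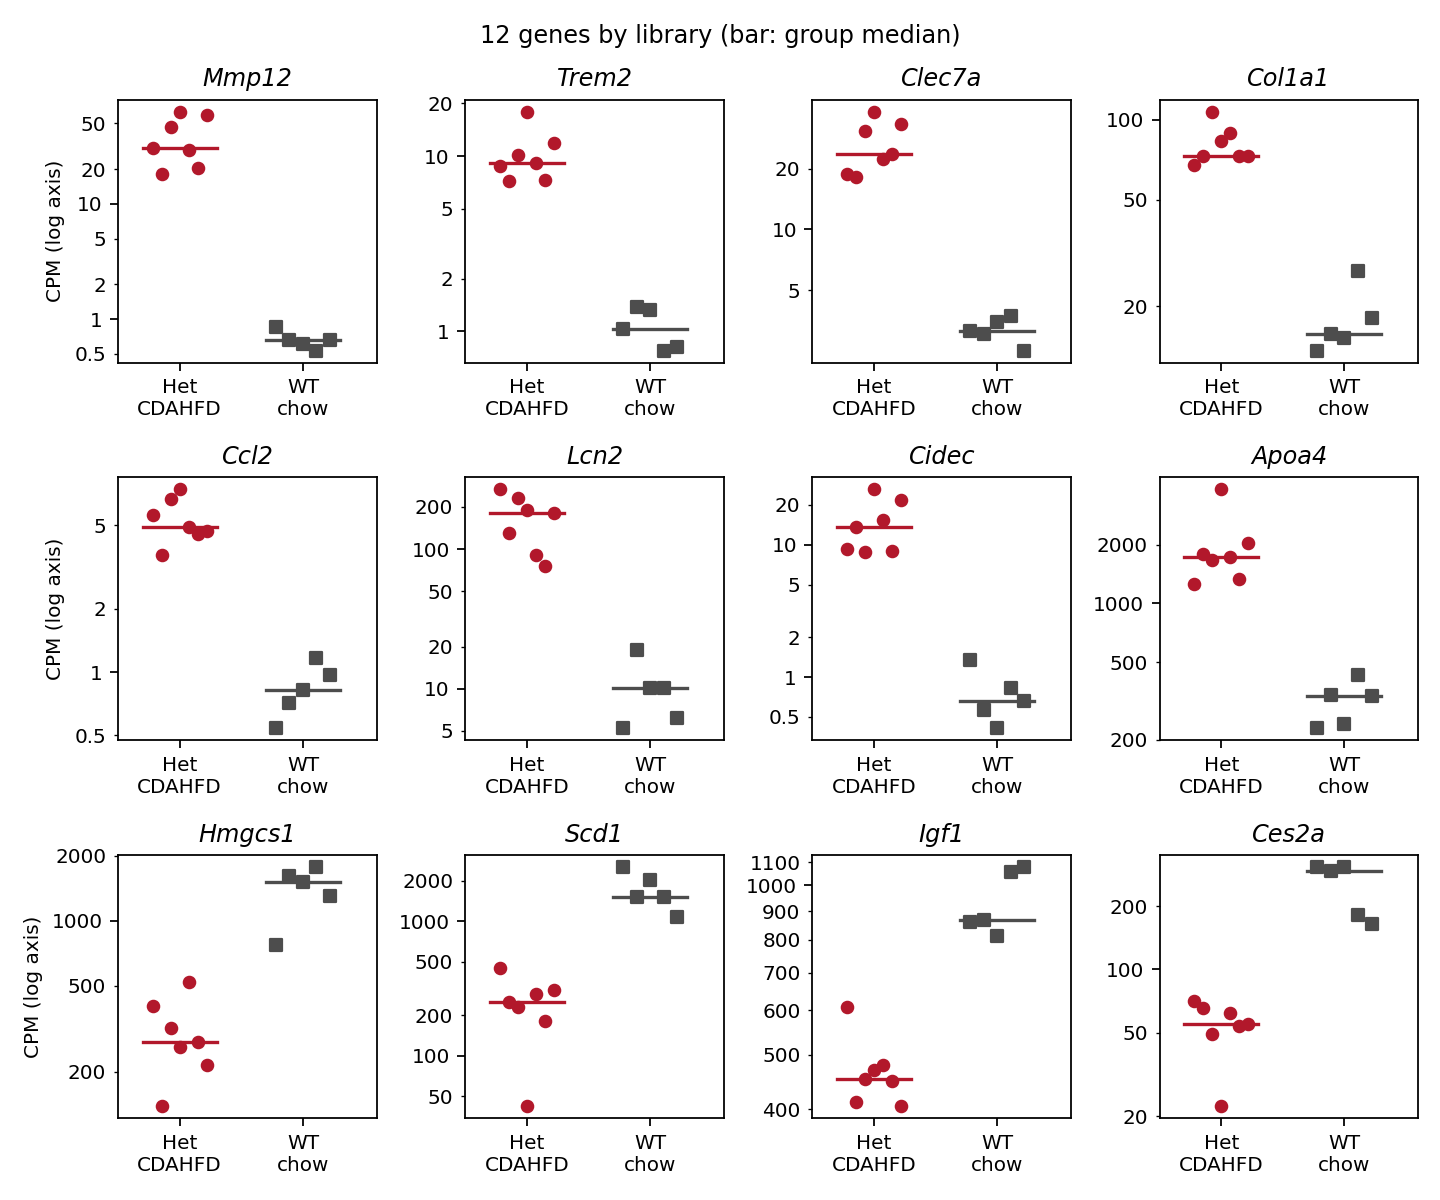
TMM-scaled CPM (log axes, each panel with its own range) of 12 genes in each of the 7 heterozygous CDAHFD livers (red circles) and 5 wildtype chow livers (grey squares), with a bar at the group median. In all 12 panels the groups do not overlap; Mmp12, Trem2, Clec7a, Col1a1, Ccl2, Lcn2, Cidec and Apoa4 are higher and Hmgcs1, Scd1, Igf1 and Ces2a lower in the heterozygous CDAHFD livers.

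Among 20 markers of lipid-associated and monocyte-derived macrophages, 17 rose and 1 fell, with a median log2 fold change of 1.65 beside 0.00 over all genes tested. Trem2, a lipid-sensing receptor, had 7.23, 9.18 and 17.9 CPM in heterozygous CDAHFD livers (lowest, median, highest) against 1.03, 1.37, 1.33, 0.773 and 0.818 CPM in wildtype chow livers. The groups were far apart, with heterozygous sample 4 the highest (3.28 ± 0.26; adjusted p = 2.62e-06). Clec7a, the beta-glucan receptor Dectin-1, rose by 3.05 ± 0.21. Cd9 and Spp1 were not called, at 0.00 and 0.38. The member that fell was Fabp5, a fatty acid-binding protein, at 10.9, 17.7 and 20.2 CPM in heterozygous CDAHFD livers against 69.3, 135.5, 111, 138 and 65.9 CPM in chow livers (-2.66 ± 0.21; adjusted p = 2.45e-06). The summed level of the 20 markers lay between 1531 and 2008 CPM in heterozygous CDAHFD livers and between 838 and 1154 CPM in wildtype chow livers, with no overlap. Abundant members weigh most in this sum. Trem2, Mmp12, Clec7a and Fabp5 had chow means of 1.07, 0.665, 3.18 and 104 CPM. Their means in heterozygous CDAHFD livers were 10.4, 38.1, 26.4 and 16.4 CPM. The sum is therefore not a measure of macrophage number.

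Beside 36.1% of all genes called, 5 of 10 Kupffer cell markers rose and none fell (median 0.67). They were Cd5l, a secreted scavenger protein (1.33 ± 0.23), Adgre1, which encodes F4/80 (1.36 ± 0.26), Vsig4, a complement receptor (0.95 ± 0.17), Csf1r, the receptor that sustains macrophages (0.76 ± 0.12), and Clec1b, a C-type lectin (0.57). Clec4f, a lectin that marks Kupffer cells, and Timd4, which marks those of embryonic origin, were not called, at 0.33 and 0.00. The summed level of the 10 markers overlapped, at 344 to 585 CPM in heterozygous CDAHFD livers and 211 to 394 CPM in wildtype chow livers. Among neutrophil markers 4 of 11 passed the filter on low counts and 3 rose: S100a8 (1.42 ± 0.41), S100a9 (1.42 ± 0.42) and Csf3r, the receptor for granulocyte colony-stimulating factor (0.91 ± 0.29). Their levels were low, with S100a8 at 0.477, 1.01 and 2.24 CPM in heterozygous CDAHFD livers against 0.314, 0.332, 0.563, 0.386 and 0.716 CPM in chow livers, and the groups overlapped. The Csf3r call ended without chow sample 2 or 3 (adjusted p up to 0.0602). With limma voom S100a9 and Csf3r were not called (adjusted p = 0.0515 and 0.0555), and in the 11000s libraries alone none of the 3 was (adjusted p = 0.0518 for S100a8, 0.0981 for S100a9 and 0.089 for Csf3r). Granule genes such as Mpo and Elane and the lineage marker Ly6g did not pass the filter.

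Of 10 T and NK cell markers tested 3 rose, a share near the 36.1% of all genes: Gzma, a granzyme (1.01 ± 0.26), Cd8a (1.32 ± 0.35) and Klrb1c (1.54 ± 0.44). The T cell receptor subunits Cd3d, Cd3e and Cd3g were not called, at -0.09, -0.13 and -0.26. Of 8 dendritic cell markers 4 rose and 1 fell, beside the 36.1% of all genes called. The 4 were Flt3 (1.66 ± 0.33), Cd209a (1.64 ± 0.34), Siglech (1.34 ± 0.32) and Ccr7 (1.11 ± 0.27). Zbtb46, a transcription factor that conventional dendritic cells and endothelium share, fell (-0.76 ± 0.20). Those that rose were at low levels, with chow means between 0.244 CPM (Cd209a) and 0.695 CPM (Ccr7). Neither Ccr7 nor Zbtb46 was called in the 11000s libraries alone. The summed level of the 8 markers overlapped, at 15.9 to 26.2 CPM in heterozygous CDAHFD livers and 13.9 to 24.8 CPM in wildtype chow livers. Zbtb46 made up a large part of that sum, with means of 6.9 CPM in heterozygous CDAHFD livers and 11.7 CPM in chow livers. The overlap is thus not a reading of dendritic cell content. Of 8 B and plasma cell markers none rose and 3 fell, again near that share: Jchain, the joining chain of secreted antibodies (-1.22 ± 0.25), Igkc (-0.90 ± 0.31) and Cd79a (-0.59 ± 0.22). Only the Jchain call held when single libraries were left out: Igkc and Cd79a each lost theirs without chow sample 1, 2 or 4 or without heterozygous sample 1, 2, 3 or 7, Igkc also without heterozygous sample 6, and Cd79a also without chow sample 3 or 5 or heterozygous sample 5. Without heterozygous sample 4, whose summed B cell markers (30.4 CPM) exceeded those of every other library, 5 of the 8 were called.

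Stellate cell markers moved in both directions: of 13, 3 rose and 2 fell (median 0.29), a share of calls near the 36.1% of all genes. Cygb, cytoglobin, rose by 0.77 ± 0.12 and Pdgfrb, the receptor for platelet-derived growth factor B, by 0.56 ± 0.11. Ngfr, the low-affinity nerve growth factor receptor, rose as well (0.70 ± 0.21), except without chow sample 5 (adjusted p = 0.0521), when 3 of the 13 were called. Ecm1, an extracellular matrix protein also made by hepatocytes, had 57.1, 113.5 and 131 CPM in heterozygous CDAHFD livers against 155, 203, 156, 192 and 195 CPM in wildtype chow livers, and the groups did not overlap (-0.85 ± 0.19). Vipr1, a neuropeptide receptor, fell (-0.58 ± 0.18) except without chow sample 2 or 5. The summed level of the 13 markers lay between 322 and 582 CPM in heterozygous CDAHFD livers, a range that held the 465 to 569 CPM of wildtype chow livers.

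Of 13 endothelial markers 3 fell, the scavenger receptor Stab1 (-0.56 ± 0.19), the VEGF receptor Flt1 (-0.57 ± 0.20) and Gpr182, a receptor of sinusoidal endothelium (-0.57 ± 0.20), and the list median was -0.23 with TMM and -0.01 with raw library totals. The share called was below the 36.1% of all genes. None of the 13 was called without chow sample 2, 4 or 5 or heterozygous sample 1, 2 or 3, 1 was called without chow sample 1, and 5 without heterozygous sample 6. Of 7 bile duct markers tested 1 fell, also below the 36.1% of all genes. The count was 0 without chow sample 2 or 4 and 2 or 3 without chow sample 1 or 3 or heterozygous sample 1, 3 or 4. Of 5 red cell markers tested 4 fell, all globins, with Hba-a1 at 15.3, 27.2 and 47.8 CPM in heterozygous CDAHFD livers against 47.2, 76, 57.3, 71.6 and 93.6 CPM in chow livers (-1.35 ± 0.25). The Hba-a1 and Hba-a2 copies share reads, and their split is uncertain. Alas2, the erythroid enzyme that starts heme synthesis, rose instead (0.67 ± 0.14).

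Of the 12 hepatocyte markers 1 rose and 5 fell, beside 36.1% of all genes called. The median was -0.34 with TMM and -0.15 with raw library totals. Apoa2 and Apoa1, the main proteins of high density lipoprotein, had log2 fold changes of -0.76 ± 0.14 and -0.61 ± 0.13, Ttr, the carrier of thyroxine and retinol-binding protein, -0.70 ± 0.14, Serpina1c, an alpha-1-antitrypsin gene whose copies share reads, -0.84 ± 0.18, and Alb, albumin, -0.41 ± 0.14. Hnf4a, the transcription factor that defines hepatocytes, was not called, at 472 ± 91.4 CPM in heterozygous CDAHFD livers and 493 ± 76.7 CPM in wildtype chow livers. Tf, transferrin, was called higher (0.47 ± 0.16; adjusted p = 0.0312), but not without chow sample 1, 2, 4 or 5 or heterozygous sample 3 or 7. The summed level of the 12 markers was 84392.5, 116252 and 121698.5 CPM in heterozygous CDAHFD livers (lowest, median, highest) against 124823, 143551, 157598, 139547 and 140855 CPM in wildtype chow livers. The groups did not overlap, and heterozygous sample 4 was far below the other 6 livers of its group. Whether this lower share of hepatocyte transcripts has a part in the other differences was not tested.

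**Figure D3:**
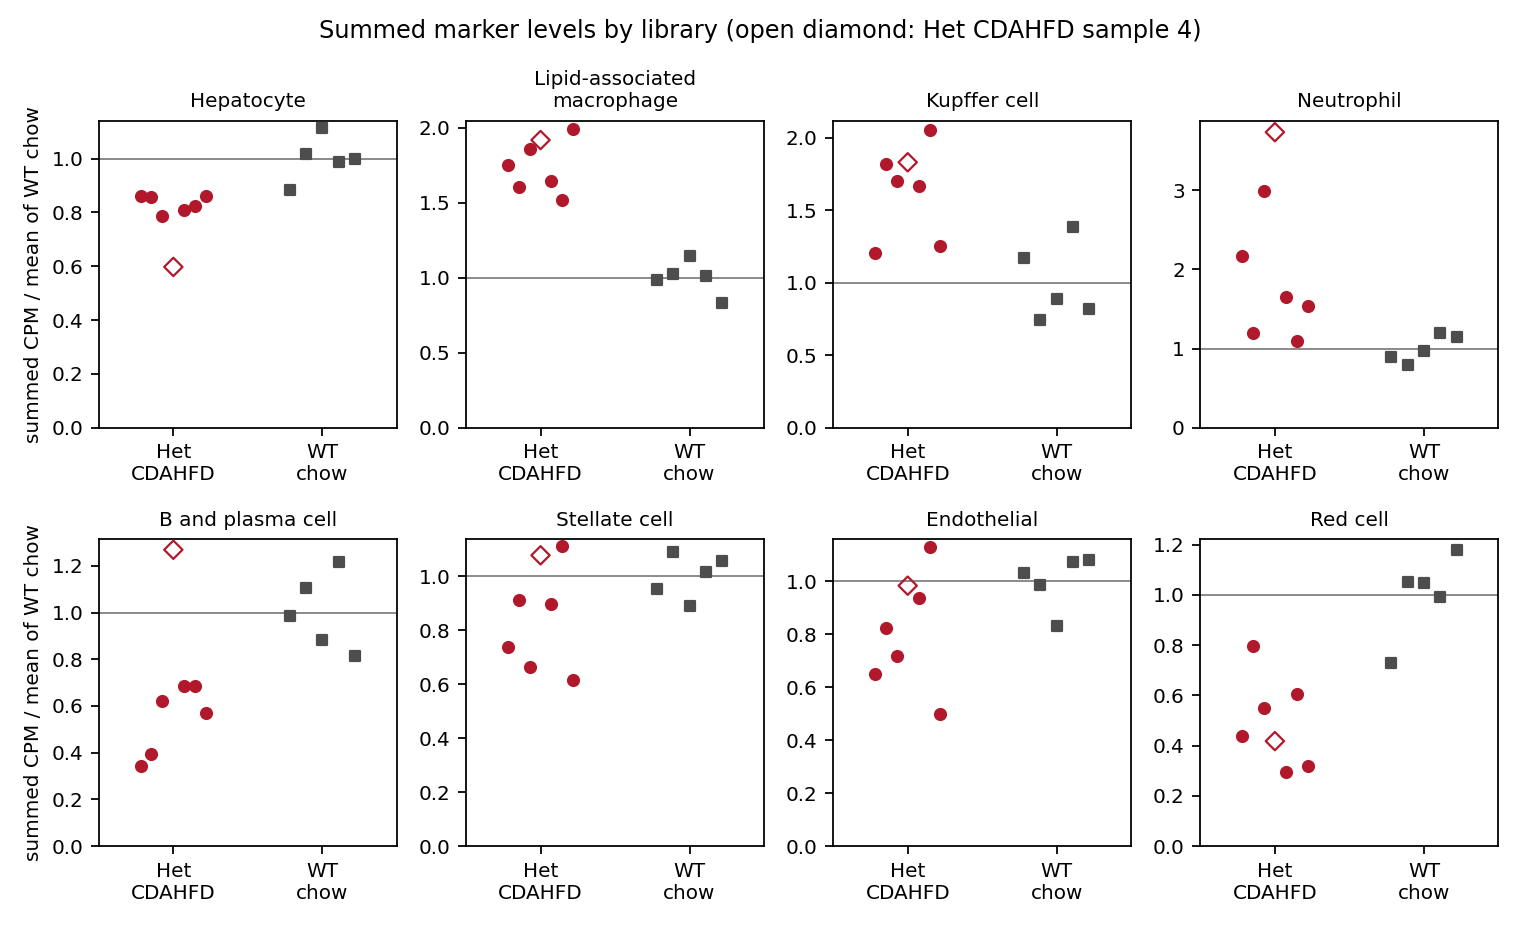
Summed CPM of the markers of 8 cell types in each library, divided by the mean of the 5 wildtype chow livers (horizontal line at 1), for the 7 heterozygous CDAHFD livers (red; sample 4 as an open diamond) and the 5 wildtype chow livers (grey squares). Abundant members weigh most in each sum. Hepatocyte sums are lower and lipid-associated macrophage sums higher in all heterozygous CDAHFD livers, while the other sums overlap; sample 4 has the lowest hepatocyte and the highest neutrophil and B cell sums of the heterozygous group.

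Matrix genes rose together. Of 21 collagens and other matrix proteins 18 rose and none fell (median 1.00). For 12 every heterozygous CDAHFD liver exceeded every wildtype chow liver, beside 7.91% of all genes tested. Col1a1, the main chain of scar collagen, had 67.4, 73.1 and 107 CPM in heterozygous CDAHFD livers (lowest, median, highest) against 13.6, 15.7, 15.2, 27.2 and 18 CPM in wildtype chow livers. All heterozygous livers were above the highest chow liver, sample 4 (2.17 ± 0.17; adjusted p = 2.48e-06). The partner chain Col1a2 rose by 1.55 ± 0.15, Col3a1 by 1.71 ± 0.15 and the basement membrane chain Col4a1 by 1.35 ± 0.12. Col15a1, Fn1 and Postn were not called, at 0.32, 0.48 and 0.40.

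Of 14 tested genes for matrix crosslinkers, proteases and their inhibitors 11 rose (median 1.06). Lox and Loxl2, which crosslink collagen, rose by 2.00 ± 0.28 and 1.17 ± 0.14, Adamts2, which trims procollagen, by 0.94 ± 0.12, and Mmp13, a collagenase, by 3.92 ± 0.44. Among 17 genes for contractile proteins and TGF-beta signalling 12 rose and none fell (median 0.52). Acta2, the smooth muscle actin of activated stellate cells, had 3.31, 4.17 and 9.52 CPM in heterozygous CDAHFD livers against 1.79, 1.19, 1.28, 1.69 and 2.05 CPM in wildtype chow livers, with no overlap (1.67 ± 0.28; adjusted p = 0.000535). The actin-binding protein gene Tagln rose by 1.61 ± 0.18, Ccn2, a matricellular growth factor, by 1.31 ± 0.26, and the receptor Tgfbr1 by 0.44 ± 0.08. In heterozygous sample 4 Acta2, Tagln and Ccn2 were the lowest of the group.

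Of 17 chemokines tested 15 rose and none fell, with a median of 2.04. Ccl2, which draws monocytes through the receptor CCR2, had 3.63, 4.93 and 7.43 CPM in heterozygous CDAHFD livers against 0.538, 0.711, 0.819, 1.16 and 0.972 CPM in wildtype chow livers. The lowest heterozygous liver exceeded the highest chow liver (2.67 ± 0.23; adjusted p = 4.81e-06). Ccl7, another ligand of CCR2, rose by 3.89 ± 0.40, the neutrophil attractant Cxcl2 by 3.55 ± 0.39 and the interferon-induced Cxcl10 by 2.63 ± 0.26. Ccl24 and Cx3cl1 were not called, and Ccl8, Ccl12 and Ccl17 did not pass the filter. The receptor Ccr2 rose too (2.31).

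Of 16 tested cytokines, innate receptors and NF-kB genes 12 rose and 1 fell (median 1.06). Vcam1, an adhesion molecule for leukocytes, had 28, 32.4 and 38.3 CPM in heterozygous CDAHFD livers against 8.87, 7.68, 9.01, 10.6 and 5.88 CPM in wildtype chow livers, far apart (1.95 ± 0.13; adjusted p = 7.14e-07). Tnfaip3, the inhibitor A20 of NF-kB signalling, rose by 2.11 ± 0.16, the bacterial lipoprotein receptor Tlr2 by 2.23 ± 0.26 and Icam1 by 1.07 ± 0.14. Il18, a cytokine activated by caspase-1, was called lower (-0.41 ± 0.15; adjusted p = 0.0495), a call that held without chow sample 1 or heterozygous sample 5 but ended when any other single library was left out. Of 17 interferon response genes 10 rose (median 0.62), led by Usp18 (1.31 ± 0.15), a brake on interferon signalling, Ifit2 (1.09 ± 0.14), Ifi44 (1.09 ± 0.16) and Gbp2 (1.80 ± 0.24); Isg15 and Ifit1 were not called, at 0.15 and -0.05. Of 14 acute phase genes 9 rose (median 0.76). Lcn2, which binds bacterial siderophores, had 75.5, 181 and 268 CPM in heterozygous CDAHFD livers against 5.20, 18.9, 10.2, 10.2 and 6.14 CPM in wildtype chow livers, with no overlap (4.04 ± 0.42). Saa1 and Saa3, serum amyloid A genes, rose by 3.58 ± 0.41 and 2.75 ± 0.26, and Steap4, a metalloreductase, by 1.84 ± 0.21.

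The 250 bases before the start of Cxcl10 are shown because this chemokine rose and its upstream window holds matches to the kB motif, the binding motif of NF-kB, searched on either strand; matches are in capitals. The sequence is from RefSeq (GRCm38.p6, chr5:92348890-92349139, minus strand).
Cxcl10 upstream: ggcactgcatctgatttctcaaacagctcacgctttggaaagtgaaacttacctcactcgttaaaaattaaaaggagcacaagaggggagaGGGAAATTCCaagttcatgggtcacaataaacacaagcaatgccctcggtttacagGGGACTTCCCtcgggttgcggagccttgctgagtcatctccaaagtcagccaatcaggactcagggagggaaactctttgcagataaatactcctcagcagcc
Such a match was found before 3 of 13 chemokines with an entry (Cxcl1, Cxcl2 and Cxcl10) and before 4 of 13 of the cytokine and NF-kB list (Il6, Tlr2, Nfkb2 and Nfkbia), beside 4.41% of the 11452 tested genes with an entry. These are letter matches in a window and not measured binding. The cytokine count takes in Il6, which did not pass the filter on low counts. The motif was chosen after the values of these lists were seen, so the counts describe the windows and test nothing.

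Cell division genes were higher: of 21, 20 rose and none fell (median 1.70). For 15 all heterozygous livers lay above all chow livers, beside 7.91% of all genes tested. Mcm5 and Mcm6, subunits of the replicative helicase, rose by 2.22 ± 0.28 and 2.03 ± 0.27, Birc5, the mitotic protein survivin, by 1.90 ± 0.24, and Rrm2, a ribonucleotide reductase subunit, by 1.44 ± 0.20. Birc5 had 3.11, 4.86 and 7.75 CPM in heterozygous CDAHFD livers against 1.25, 1.56, 1.18, 1.35 and 1.33 CPM in wildtype chow livers, so all heterozygous livers were above all chow livers at low levels of both. Which cells carried these transcripts cannot be told from bulk tissue. Of 13 p53 target genes 8 rose (median 0.54), among them Phlda3 (1.92 ± 0.24), Btg2 (1.38 ± 0.18), Eda2r (2.74 ± 0.42) and Ccng1 (0.46 ± 0.09), which act in growth arrest or cell death; Mdm2 and Bax were not called, at -0.10 and -0.03.

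Of 17 NRF2 target genes of the antioxidant response 10 rose and 1 fell (median 0.59). Hmox1, heme oxygenase 1, had 29.5, 37.2 and 44.8 CPM in heterozygous CDAHFD livers against 15.1, 11.2, 13.9, 14 and 10.9 CPM in wildtype chow livers, with no overlap (1.53 ± 0.13). Srxn1, which restores oxidized peroxiredoxins, rose by 1.75 ± 0.16 and the cystine transporter gene Slc7a11 by 1.83 ± 0.35, whereas Osgin1, an oxidative stress growth inhibitor, fell (-0.88 ± 0.24). Of 18 tested genes of the endoplasmic reticulum stress and amino acid response 6 rose and 1 fell, near the 36.1% called among all genes. The 6 were Psat1 (2.43 ± 0.24) and Asns (1.30 ± 0.21), enzymes of serine and asparagine synthesis, the transcription factor Atf3 (2.73 ± 0.29), the hormone Fgf21 (3.42 ± 0.65), Trib3 (1.59) and Chac1 (1.51). Chaperone genes such as Hspa5, Hyou1 and Pdia4 were not called, at 0.23, 0.07 and 0.21. Atf4, the factor upstream of several of these genes, was called lower (-0.44 ± 0.16), but not without chow sample 1, 2, 4 or 5 or heterozygous sample 1, 2, 3 or 7.

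Of 13 tested keratin, annexin and tubulin genes associated with liver injury 11 rose (median 1.09), among them Anxa2 (2.07 ± 0.23) and Anxa5 (1.46 ± 0.15), which bind membrane phospholipids. Of 16 lysosome genes 12 rose (median 0.62): Ctss, a cathepsin of antigen-presenting cells, by 1.73 ± 0.16, Hexa, a hexosaminidase, by 1.02 ± 0.11, Gusb, beta-glucuronidase, by 0.95 ± 0.13, and Psap, the precursor of saposins, by 1.07 ± 0.16. Tfeb, the transcription factor of lysosome genes, was not called (0.03).

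Nearly the whole of cholesterol synthesis fell: of 24 genes for cholesterol synthesis and uptake 23 fell and none rose, with a median of -1.33. For 18 every heterozygous CDAHFD liver lay below every wildtype chow liver, beside 6.46% of all genes tested. Hmgcs1, the cytosolic HMG-CoA synthase at the head of the pathway, had 139, 275 and 518 CPM in heterozygous CDAHFD livers (lowest, median, highest) against 774, 1602, 1514, 1775 and 1305 CPM in wildtype chow livers. The highest heterozygous liver, sample 5, stayed below the lowest chow liver, sample 1 (-2.19 ± 0.28; adjusted p = 8.94e-05). Fdft1, squalene synthase, fell (-1.40 ± 0.22), as did Tm7sf2, a sterol reductase (-1.65 ± 0.23), and Insig1, the sterol-regulated anchor that holds SREBP precursors in the endoplasmic reticulum (-1.33 ± 0.21). Mvd, mevalonate diphosphate decarboxylase, fell furthest, at -2.35, and Srebf2, the transcription factor of the pathway, fell at -0.46. With raw library totals 21 of the 24 fell and 1 rose (median -1.14). The summed level of the 24 genes was 1956, 2744.5 and 4015 CPM in heterozygous CDAHFD livers against 4670.5, 7603, 8392, 7019 and 5221 CPM in wildtype chow livers, again without overlap.

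**Figure D4:**
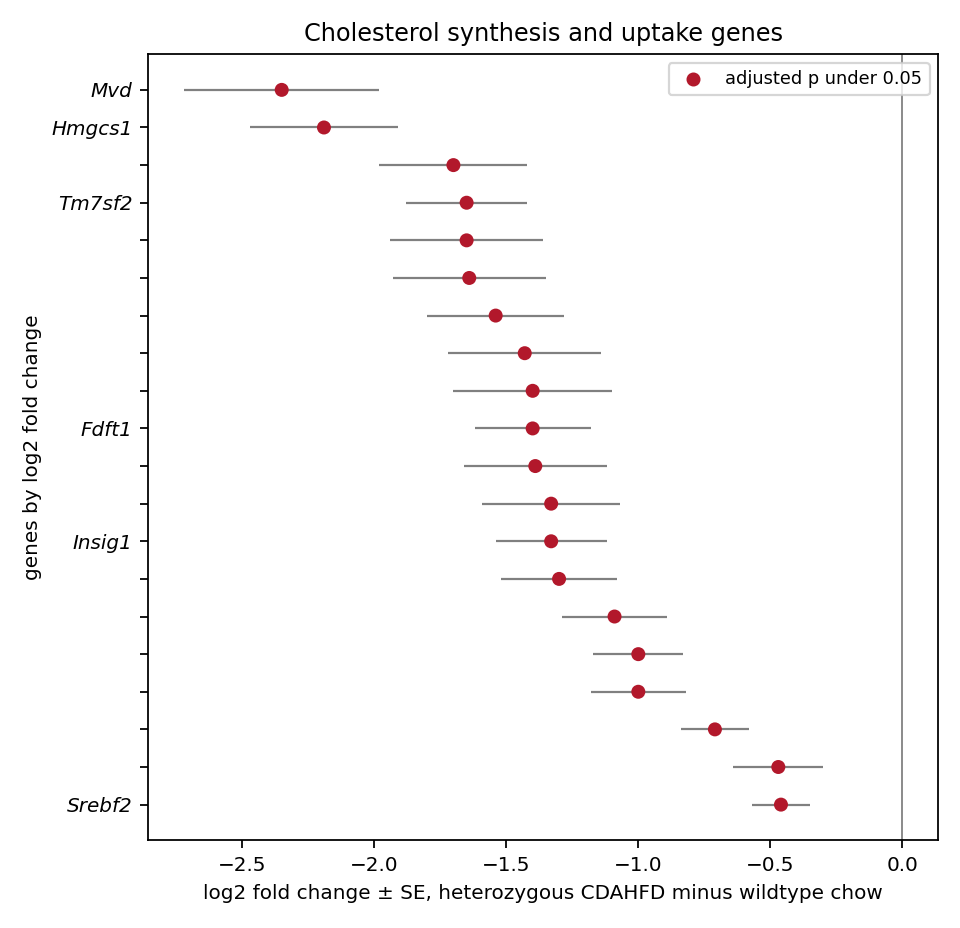
Log2 fold change (heterozygous CDAHFD minus wildtype chow) with its standard error for 20 of the 24 genes of cholesterol synthesis and uptake, ranked, with the genes of the text labelled; red points had an adjusted p under 0.05. All 20 lie left of zero, between -2.35 for Mvd and -0.46 for Srebf2. The 4 genes not shown are among those not reported by name; 3 of them fell and 1, the only gene of the 24 not called, lay right of zero.

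The windows before Hmgcs1, Insig1 and Tm7sf2 are shown because these genes were among the 4 of the list with the lowest p-values and have an entry in the RefSeq table (GRCm38.p6). Each is the 250 bases before the gene's start, read along the gene; capitals mark the sterol regulatory element letters TCACNCCAC and the CCAAT box letters CCAAT, on either strand (ATTGG on the strand shown). The places are chr13:119690101-119690350, plus strand, for Hmgcs1, chr5:28071162-28071411, plus strand, for Insig1 and chr19:6067851-6068100, minus strand, for Tm7sf2.
Hmgcs1 upstream: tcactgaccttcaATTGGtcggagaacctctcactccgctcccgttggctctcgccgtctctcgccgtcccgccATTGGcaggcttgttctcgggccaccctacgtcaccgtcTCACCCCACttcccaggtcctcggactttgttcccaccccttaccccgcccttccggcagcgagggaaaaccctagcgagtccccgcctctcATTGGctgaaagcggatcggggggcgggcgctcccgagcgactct
Insig1 upstream: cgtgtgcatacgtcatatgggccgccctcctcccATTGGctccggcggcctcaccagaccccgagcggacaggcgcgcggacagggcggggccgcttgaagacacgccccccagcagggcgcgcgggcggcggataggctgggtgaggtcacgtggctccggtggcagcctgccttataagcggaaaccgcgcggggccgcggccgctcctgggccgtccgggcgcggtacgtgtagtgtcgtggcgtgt
Tm7sf2 upstream: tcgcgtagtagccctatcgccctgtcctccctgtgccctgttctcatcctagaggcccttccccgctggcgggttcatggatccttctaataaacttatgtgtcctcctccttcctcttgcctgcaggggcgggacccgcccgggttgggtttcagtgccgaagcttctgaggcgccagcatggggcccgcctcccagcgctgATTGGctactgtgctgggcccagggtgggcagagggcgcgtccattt
The CCAAT letters were present before all 16 of the 24 genes that have an entry, beside 40.2% of the 11452 tested genes with an entry, and before 2 of 13 chemokines. TCACNCCAC was present before Hmgcs1 alone of the 16, beside 1.30% of tested genes. The motifs were chosen after the fall of this list was known, so these counts describe the windows and test nothing.

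Of 18 fatty acid synthesis genes 2 rose and 7 fell, beside 36.1% of all genes called. The median was -0.38 with TMM and -0.18 with raw library totals. Scd1, the desaturase that makes oleate, had 42.2, 248.5 and 449 CPM in heterozygous CDAHFD livers against 2528, 1514, 2003, 1519.7 and 1077.5 CPM in wildtype chow livers. The groups did not overlap, and sample 4 was far below the other heterozygous livers (-2.79 ± 0.41; adjusted p = 0.000327). Acss2, which activates acetate, fell (-1.83 ± 0.23), as did the elongase Elovl3 (-1.52 ± 0.22) and Mlxipl, the glucose-sensing transcription factor ChREBP (-1.05 ± 0.17). Fasn fell too, at -1.15, while Acaca, Acacb and Srebf1 were not called, at -0.06, 0.00 and -0.32. Fads2 and Fads1, the desaturases of polyunsaturated fatty acids, went the other way. Fads2 rose by 0.95 ± 0.18, and the Fads1 call (0.42 ± 0.14) ended without chow sample 1, 2, 4 or 5 or heterozygous sample 1, 2 or 7.

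Of 21 tested triglyceride and lipid droplet genes 7 rose and 1 fell (median 0.33), beside 36.1% of all genes called, so the count is near the background. Cidec had 8.80, 13.7 and 26.2 CPM in heterozygous CDAHFD livers against 1.34, 0.569, 0.409, 0.821 and 0.665 CPM in wildtype chow livers, with heterozygous sample 4 the highest and no overlap. Plin4, a perilipin, rose by 1.68 ± 0.27, Plin3 by 0.40 ± 0.08 and Hsd17b13, a droplet-bound hydroxysteroid dehydrogenase, by 1.22 ± 0.15. Plin2, Plin5 and Fitm2 rose as well, by 0.73, 0.34 and 0.74. Agpat2, an acyltransferase of triglyceride synthesis, was called lower (-0.33 ± 0.10) except without chow sample 2 or 4, and Gpam, Dgat1 and Dgat2 were not called.

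Of 23 genes of PPAR-alpha signalling and fatty acid oxidation 7 rose and 1 fell (median 0.27), a count close to the 36.1% called over all genes. Cpt1a, which admits fatty acids to mitochondria, had 299, 385.5 and 671 CPM in heterozygous CDAHFD livers against 243, 171, 271, 179.9 and 232 CPM in wildtype chow livers. The lowest heterozygous liver, sample 4, was just above the highest chow liver (1.03 ± 0.21). Bdh1, the ketone body dehydrogenase, rose by 0.95 ± 0.14 and Acadm, the medium-chain acyl-CoA dehydrogenase, by 0.52 ± 0.15. Cyp4a10, an omega-hydroxylase and a classical PPAR-alpha target in mice, fell (-0.90 ± 0.23), and the target Ehhadh was not called, at -0.03. The Acadm and Cyp4a10 calls were lost in the 11000s libraries alone.

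Genes of the phosphatidylcholine, betaine and methionine pathways were called in 8 of 27 cases, beside 36.1% of all genes: 3 rose and 5 fell, and the median was -0.15 with TMM and 0.05 with raw library totals. Mat2a, the inducible methionine adenosyltransferase, had 89.9, 145 and 150.0 CPM in heterozygous CDAHFD livers against 80.6, 72.3, 74.7, 72.9 and 71.7 CPM in wildtype chow livers. All 7 heterozygous livers were above all 5 chow livers, which lay within a narrow range (0.84 ± 0.12; adjusted p = 0.000178). Bhmt, which uses betaine from choline to remake methionine, fell (-0.71 ± 0.15), as did Cth, a cystathionine lyase (-0.61 ± 0.12), and Pcyt2 of phosphatidylethanolamine synthesis (-0.80 ± 0.15). Pcyt1a, the rate-limiting enzyme of phosphatidylcholine synthesis from choline, rose by 0.52 ± 0.14, a call lost in the 11000s libraries alone. Pemt, which makes phosphatidylcholine without choline, was not called (0.17). The summed level of the 27 genes lay between 8233 and 12013 CPM in heterozygous CDAHFD livers and between 12463 and 14107 CPM in wildtype chow livers.

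Of 23 apolipoprotein and lipoprotein genes 6 rose and 7 fell, beside 36.1% of all genes called. The median was -0.05 with TMM and 0.15 with raw library totals. Apoa4, an apolipoprotein induced in fatty liver of mice, had 1261, 1727 and 3850.3 CPM in heterozygous CDAHFD livers against 228, 341, 242, 429 and 334 CPM in wildtype chow livers. Heterozygous sample 4 was the highest, and the groups did not overlap (2.63 ± 0.28). Cd36, a fatty acid transporter, rose by 1.75 ± 0.24, whereas Apoc3, an inhibitor of lipoprotein lipase, fell (-1.0 ± 0.16), as did Angptl8, a feeding-induced regulator of that lipase (-2.31 ± 0.30). Apob and Mttp, which build very low density lipoprotein, were not called, at 0.31 and 0.29.

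Of 22 bile acid genes 1 rose and 6 fell (median -0.20 with TMM and 0.00 with raw library totals), fewer calls than the 36.1% over all genes. Cyp27a1, a sterol hydroxylase that starts the alternative pathway, fell (-0.87 ± 0.13), as did Nr0b2, the repressor SHP (-1.04 ± 0.20), Abcg5, a sterol exporter subunit (-0.60 ± 0.15), and Hsd3b7 (-0.52 ± 0.14). The Abcg5 and Hsd3b7 calls were lost in the 11000s libraries alone. Abcb4, the phosphatidylcholine exporter of bile, rose by 0.49 ± 0.14. Cyp7a1, the rate-limiting enzyme of bile acid synthesis, was not called (0.15). Of 20 xenobiotic metabolism genes 6 fell and none rose (median -0.34 with TMM and -0.15 with raw library totals), again below that share. Most belong to P450 or carboxylesterase families whose copies can share reads. Ces2a, a carboxylesterase, had 22.3, 55.2 and 70.4 CPM in heterozygous CDAHFD livers against 308, 295, 307, 182 and 164 CPM in wildtype chow livers, with no overlap and sample 4 the lowest (-2.22 ± 0.24). Cyp2b10, the classical target of the receptor CAR, fell (-2.22 ± 0.27), as did Cyp2c54 (-1.83 ± 0.21) and Cyp3a11 (-1.03 ± 0.18). The receptor genes Nr1i2 and Nr1i3 were not called, at -0.35 and -0.25.

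Of 16 glucose metabolism genes 6 rose and none fell (median 0.38), near the 36.1% of all genes that were called: Pfkfb3, a regulator of glycolysis (1.33 ± 0.24), Hk3, a hexokinase of myeloid cells (1.03 ± 0.21), Pkm, the pyruvate kinase of cells other than hepatocytes (0.55 ± 0.11), Ldha (0.78 ± 0.19), Slc2a2 (0.72) and Gys2 (0.89). With raw library totals 10 were called higher. The Ldha call was lost in the 11000s libraries alone. Pck1 and G6pc were not called, at 0.29 and -0.21. Of 17 urea cycle, amino acid and zonation genes none rose and 6 fell (median -0.37 with TMM and -0.16 with raw library totals), a share likewise near the background, including Hal, histidine ammonia-lyase (-0.90 ± 0.14), Gls2, the liver glutaminase (-0.88 ± 0.15), Tbx3, a transcription factor of the central zone (-0.76 ± 0.19), and Nags, which makes the activator of the urea cycle (-0.42 ± 0.11).

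Of 11 growth hormone and IGF genes 1 rose and 5 fell, beside 36.1% of all genes called. The median was -0.36 with TMM and -0.14 with raw library totals. Igf1, the growth factor the liver secretes under growth hormone, had 405, 453 and 609 CPM in heterozygous CDAHFD livers against 862, 868.5, 812, 1058 and 1079 CPM in wildtype chow livers, with no overlap (-1.0 ± 0.12; adjusted p = 5.96e-05). Socs2 (-1.04 ± 0.29), Stat5b (-0.35 ± 0.09) and Igfals (-0.54 ± 0.16), which act in or downstream of growth hormone signalling, fell as well, but Socs2 was not called in the fit of all 26 libraries (adjusted p = 0.0713). Igfbp1, an IGF-binding protein, was called higher (1.85 ± 0.63) with wide spread in both groups, 27.3, 107 and 257 CPM in heterozygous CDAHFD livers against 90, 37.4, 31.4, 6.72 and 14 CPM in wildtype chow livers. That call ended when any 1 of 9 libraries was left out (all but chow sample 1 and heterozygous samples 1 and 3).

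Of 16 circadian clock genes 1 rose and 1 fell, far fewer calls than the 36.1% over all genes: Per1, a repressor of the clock (1.49 ± 0.47), and Clock, its activator (-0.60 ± 0.14). Per1 had 16, 46.5 and 87.4 CPM in heterozygous CDAHFD livers against 29.8, 5.78, 20.8, 12.9 and 11.7 CPM in wildtype chow livers, so the groups overlapped, and its call ended without chow sample 4 or 5. The count of called members was 6 without chow sample 1 or without heterozygous sample 4, 4 without heterozygous sample 6 and 1 without chow sample 4 or 5. The summed level of the list was 365 CPM in heterozygous sample 4 and up to 1034 CPM in the other heterozygous livers, and 899 CPM in chow sample 1 and as low as 312 CPM in the other chow livers. No time of day of collection is stated. Of 11 iron and metallothionein genes 1 rose and 1 fell, also fewer calls than the 36.1% over all genes. Hamp2, a hepcidin gene, fell (-1.60 ± 0.43) and Fth1, ferritin heavy chain, rose by 0.36 ± 0.11. The Fth1 call was lost in the 11000s libraries alone. Hamp was not called (-0.45).

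All 13 protein-coding transcripts of the mitochondrial genome fell (median -0.81). mt-Atp6 had 1829, 2819.9 and 3401 CPM in heterozygous CDAHFD livers against 7900.5, 4429.8, 4929, 9099 and 7871 CPM in wildtype chow livers, with no overlap (-1.35 ± 0.21). The log2 fold change was -0.95 ± 0.18 for mt-Co3, -1.12 ± 0.21 for mt-Nd6 and -0.81 ± 0.17 for mt-Co2. For 3 of the 13 every heterozygous liver was below every chow liver, beside 6.46% of all genes tested. In the share of all genes with an mt- symbol, which is not limited to these 13, chow sample 3 was the lowest chow liver (8.64%). Heterozygous sample 4 was the highest heterozygous liver (11.50%).

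**Figure D5:**
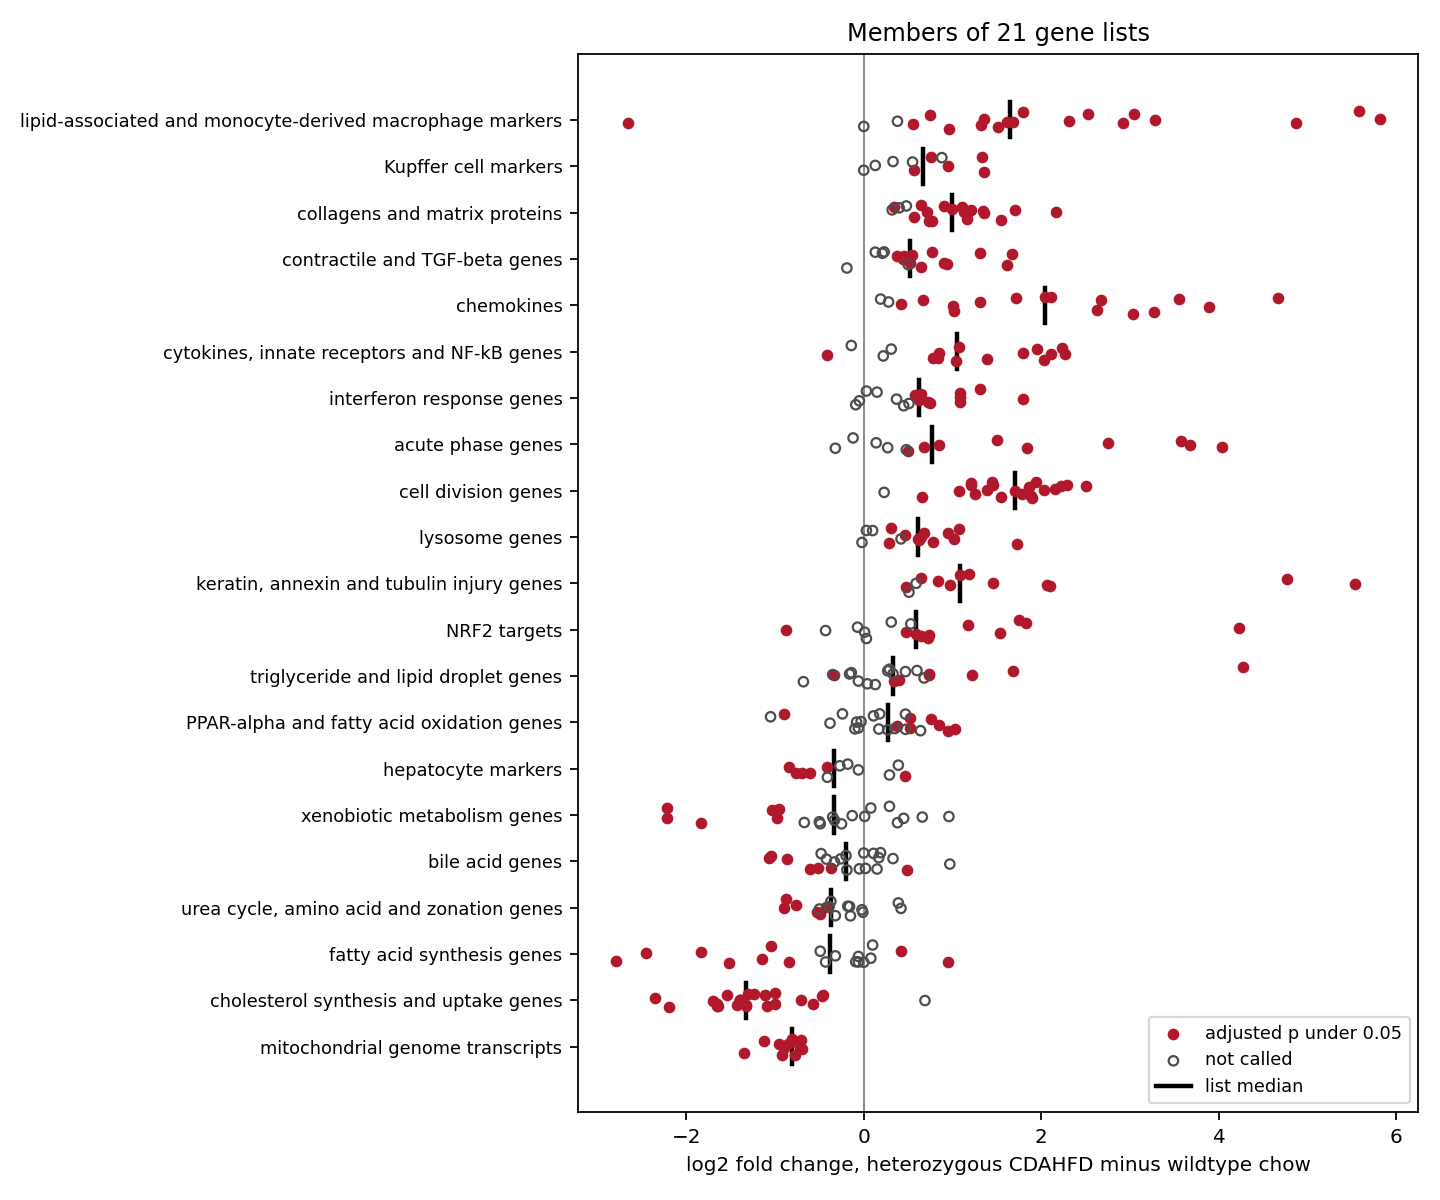
Log2 fold change (heterozygous CDAHFD minus wildtype chow) of each tested member of 21 gene lists, filled red where the adjusted p was under 0.05 and open grey where not called, with a black bar at the list median. The medians run from 2.04 for chemokines to -1.33 for cholesterol genes, and Fabp5 lies apart from the rest of the macrophage list.

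Over the 595 tested genes of all 39 lists, 335 were called, 227 higher and 108 lower. Among all genes tested 36.1% were called, 18.1% higher and 18% lower. The lists were chosen with earlier results of these data known, so their larger share of calls describes that choice and tests nothing. Among libraries of the 11000s alone the leading lists gave 12 of 16 tested chemokines higher (median 2.06), 16 of 20 lipid-associated macrophage markers higher (median 1.72), 16 of 21 collagens and matrix proteins higher (median 1.00), 19 of 21 cell division genes higher (median 1.83) and 21 of 24 cholesterol genes lower (median -1.49). Of the 176 called genes chosen by rule, 174 were tested in those libraries and 26 were not called there, Ngfr and Stat5b among them. With raw library totals 18 of the 176 called genes chosen by rule were not called, all of them lower ones, among them Mocs2, Igkc, Cd79a, Zbtb46, Vipr1, Stab1, Flt1, Gpr182, Il18, Osgin1, Atf4, Agpat2, Hsd3b7, Nags, Stat5b, Igfals and Clock.

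The heterozygous livers also differed among themselves. Sample 4 had the highest Mmp12, Trem2, Clec7a, Ly6d, Cidec, Fgf21 and Apoa4 and the lowest Mtarc1, Scd1, Ces2a and summed cholesterol genes (1956 CPM, against 2745 CPM at the group median) of the 7. Without it and chow sample 3 together, a choice made after these libraries were seen to stand apart, 7043 genes were called. Among genes with a mean of at least 5 CPM in heterozygous CDAHFD livers, the largest SD of log2 CPM over the 7 heterozygous livers belonged to Gm10222, Rps6-ps4, Gm28661, 1 of the genes named Gcat, Sult3a1 and Rsc1a1. Of these Sult3a1, a sulfotransferase, had 0.5, 20.5 and 73.1 CPM in heterozygous CDAHFD livers against 137, 114, 154, 94.3 and 134 CPM in wildtype chow livers, with no overlap. It was not called in the fit of the 12 libraries (-2.24 ± 0.83; adjusted p = 0.0547) but was called lower in the fit of all 26 (adjusted p = 0.0244) and by DESeq2 (adjusted p = 0.0282). The other 5 were not called between the groups. Gm10222, Rps6-ps4, Gm28661 and this Gcat copy were listed at 0 in some libraries and well above 0 in others of the same group, and as pseudogenes or copies they may share reads with other genes.

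The 3 CDAHFD groups were each set against the same 5 chow libraries in 1 fit of all 26 libraries, so their values share those controls and are given side by side only. In that fit 6361 genes were called for heterozygous CDAHFD (37.2%), 4630 for wildtype CDAHFD (27.1%) and 3953 for homozygous CDAHFD (23.1%) against wildtype chow. Such counts depend on the number and spread of the samples and do not rank the size of the differences from chow. The log2 fold change of Mtarc1 was -0.93 ± 0.15 in heterozygous, -0.38 ± 0.16 in wildtype and -2.65 ± 0.15 in homozygous CDAHFD livers, with means of 161 ± 33.7, 235 ± 40.7 and 48.7 ± 10.4 CPM (SD, n = 7, 6 and 8) and 305 ± 40.2 CPM in chow livers (n = 5). Mmp12 had 5.83 ± 0.68 in heterozygous, 5.85 ± 0.69 in wildtype and 4.27 ± 0.67 in homozygous CDAHFD livers. Hmgcs1 had -2.19 ± 0.32, -2.57 ± 0.34 and -2.40 ± 0.31 in the same order of groups.

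For heterozygous, wildtype and homozygous CDAHFD livers in that order, the median log2 fold change against chow was 1.65, 1.90 and 1.15 for lipid-associated macrophage markers, 1.01, 1.33 and 0.76 for collagens and matrix proteins, 2.05, 2.20 and 1.46 for chemokines, 1.70, 1.86 and 1.83 for cell division genes and -1.33, -1.76 and -1.53 for cholesterol genes. Tested directly, no gene differed between heterozygous and wildtype CDAHFD livers (0 of 17104 by edgeR; 1444 at an unadjusted p under 0.05, or 8.44%). DESeq2 called 2, both lower in heterozygous CDAHFD livers. Mtarc1 had -0.55 ± 0.15 in that comparison (adjusted p = 0.569). Between heterozygous and homozygous CDAHFD livers Mtarc1 alone was called (1 gene, 0.00585%; 1.72 ± 0.14; adjusted p = 2.36e-08), with 1219 genes at an unadjusted p under 0.05 (7.13%) and 17 called by DESeq2, 2 higher and 15 lower. A gene that misses the threshold is not shown to be alike in the groups.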

How the data were processed

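Bulk RNA-seq of mouse liver was analysed in the 12 libraries of both groups, and all 26 were used in 1 fit for the side-by-side values. RNA was taken with RNeasy Mini and libraries were made with NEBNext Ultra II, per the labels' protocols; the submitters' processing notes name cutadapt 3.5, Salmon 1.4.0 and the build GRCm39. The authors deposited estimated counts per Ensembl gene (54.4% of values above 0 are whole), which were rounded here. Strandedness is not stated. Of 55642 IDs, 92.5% were named from GENCODE M21. edgeR 4.0.16 (R 4.3.3) was run with TMM scaling, filterByExpr by group and a robust quasi-likelihood test, with Benjamini-Hochberg adjustment over all tested genes; log2 fold changes are given with their standard errors. A call is an adjusted p under 0.05. Single values were compared by exact two-sided permutation tests in scipy 1.17.1. On counts simulated for this comparison (15982 genes) 35.8% of genes changed 1.5-fold were called, 95.5% of those changed 2-fold and 100% of those changed 4-fold, beside 8 unchanged ones. Only 67, 67 and 66 genes were changed at these folds, none of them with low counts, and every gene had the same spread. In the data 36.1% of genes were called and spread differs by gene, so these rates need not hold there. No 2 libraries of a group agreed within sampling noise. Alternatives were DESeq2 1.42.0, limma voom 3.58.1, other scalings and filters, the 9000s and 11000s of the library names (which nothing calls a batch) and leaving out single libraries.

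Members and gene lists were chosen with earlier results of these data known. Genes are named as follows: Mtarc1 and Mtarc2, the 12 largest rises and falls among called genes (mean of at least 1 CPM in the higher group), up to 4 called members per list with the lowest p and up to 2 that moved against their list, and the 6 with the largest SD among heterozygous livers (mean of at least 5 CPM). Some members of the lists are not reported here by name. Other genes, and the motifs, were chosen after their values were seen.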

Additional observations from a re-analysis of the deposited data

Results flagged for a closer look

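Of 146 values checked within groups, 7 had 1 library far from the rest, and about 1 in 20 is flagged by chance. The summed hepatocyte markers were 84393 CPM in heterozygous CDAHFD sample 4, against 111356 to 121699 CPM in the other 6 livers of its group. Gm12751 was listed at 0.0 CPM in heterozygous CDAHFD sample 1, with 0.562 to 1.75 CPM in the others. Rsc1a1 was listed at 0.0 CPM in heterozygous CDAHFD sample 7, with 4.48 to 11.8 CPM in the others. Gm28661 was listed at 0.0 CPM in heterozygous CDAHFD sample 7, with 221 to 1565 CPM in the others of that group, and at 0.0 CPM in wildtype chow sample 3, with 397 to 3749 CPM in the other chow livers. In wildtype chow livers Gm20708 had 0.665 CPM in sample 3, with 24.1 to 82.0 CPM in the others, and Gm21188 had 0.386 CPM in sample 4, with at most 0.0512 CPM in the others. Mtarc1 differed between the heterozygous and homozygous CDAHFD livers, by 1.72 on the log2 scale in the fit of all 26 libraries (edgeR, adjusted p = 2.36e-08).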

How the results depend on the processing

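The count of genes called between heterozygous CDAHFD and wildtype chow livers was 5840, lay between 4244 (without chow sample 5) and 6448 (without chow sample 3) when single libraries were left out, and came to 3142 in the 11000s libraries and 672 in the 9000s, where fewer samples enter the fit. DESeq2 called 6415 and limma voom 5727. Genes of the lists called were 335 and, in the 9000s alone, 109. In the 9000s Nags (0.06), Igfals (0.16) and Igfbp1 (-0.02) had the opposite sign. DESeq2 called 2 genes between heterozygous and wildtype CDAHFD livers and 17 between heterozygous and homozygous ones; edgeR called 0 and 1; the cause was not tested. The Mtarc2 difference was 8.84 CPM with TMM and 52.5 CPM with raw library totals. The difference in mitochondrial share, -5.05 percentage points, was -4.54 in the 11000s libraries (p = 0.0857, exact permutation test, where 0.0286 is the smallest possible). The Mtarc1 difference lay between -150.8 and -128.3 CPM without single libraries. Samples with the same number did not all deviate together (r between -0.014 and 0.311; 3 of 5 heterozygous samples correlated best with their own number), so the numbers were not taken to pair the samples; with the number as a replicate block 5255 genes were called, 13 of the 176 called genes chosen by rule were not (Gm20708, Hsd3b5, Cyp3a16, Mocs2, Klrb1c, Il18, Fads1, Cyp4a10, Socs2, Igfals, Igfbp1, Per1 and Hamp2), and 0 and 1 were called in the comparisons with wildtype and homozygous CDAHFD livers. Depth limits what is said of neutrophil, T cell and B cell markers, most of which lay near or under the filter. The dendritic cell markers that rose were likewise at low levels.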
